A study of Xenopus tropicalis with 3 samples.

Results

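The ADAM and ADAMTS genes of Xenopus tropicalis encode metalloproteinases of the cell surface and of the extracellular matrix. They were taken from the RefSeq gene table of the UCB_Xtro_10.0 assembly as every protein-coding gene on chromosomes 1 to 10 whose symbol begins with adam, adamts or adamtsl followed by a number. This rule gave 38 of 21749 genes, of which 14 were ADAM, 19 were ADAMTS and 5 were ADAMTS-like genes. Names and positions chose the members, and the families were picked for description with earlier results of these data known. A family member listed only under a locus number is not counted.

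ADAM proteins carry a metalloproteinase and a disintegrin domain, and most are anchored in the membrane, where the active ones cut the outer part off other membrane proteins and release growth factors, cytokines or adhesion molecules. ADAMTS proteins lack the membrane anchor, are secreted, and carry thrombospondin repeats that hold them in the matrix, where they cut proteoglycans and process procollagens. ADAMTS-like proteins share the repeats but have no protease domain. In cartilage and bone these families are known for the breakdown of aggrecan, the processing of fibrillar procollagen and the release of signals during skeletal growth.

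Open chromatin was profiled by ATAC-seq, an assay that inserts sequencing adapters into accessible DNA with a transposase, in the urostyle, a rod of bone that ends the trunk of the adult frog and takes shape as the tail is lost. The labels give tadpoles at stage 65 of metamorphosis, with 1 library and no genotype, treatment, strain or age, and stages 56 and 61, whose lists use other chromosome names, were not analysed here. Per the labels' protocol the dissected tissue was crushed, while the design text names laser capture. Cells were not separated, so a site open in few cells and a site weakly open in many cannot be told apart. The list held 311625 peaks, and the peak values are the authors'. With 1 library there is no replicate, no test was made, and every interval below covers counting error only.

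Each peak carries a fold, the fragment pileup at its summit over a genome-wide background of 5.68 fragments with 1 added to each. The median peak had a fold of 3.29 and 21 fragments at its summit, and the weakest had 12. Marker genes did not single out one tissue: a peak lay within 1 kb of a gene end in 5 of 5 bone markers and 3 of 5 cartilage markers, but also in 4 of 5 muscle, 4 of 5 neuron, 4 of 5 erythroid, 4 of 4 leukocyte, 3 of 5 epidermal and 3 of 5 endothelial markers. Of all protein-coding genes 85.7% had one. Markers without one were acan and col9a1 (cartilage), pax7 (muscle), elavl4 (neuron), hba1 (erythroid), tp63 and grhl3 (epidermis), and tek and erg (endothelium). The highest gene-end folds among the markers were 45.5 at epor and 43.0 at gata1, both erythroid. Next came 22.2 at myod1 (muscle), 20.7 at sox9 (cartilage) and 16.6 at alpl (bone). Of these top markers, gata1, myod1 and alpl lie within 10 Mb of a chromosome end, where peaks cover more of each gene, as given below. The other erythroid markers were lower, with 4.79 at slc4a1, 4.34 at alas2 and none at hba1.

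All 14 ADAM genes had a peak within 1 kb of a gene end, whereas 5 of the 19 ADAMTS genes had none. The shares were 100% for ADAM (exact interval 76.8 to 100) and 73.7% for ADAMTS (48.8 to 90.9), and all 5 ADAMTS-like genes were occupied. The share of all protein-coding genes was 85.7%, so for the 38 genes as a whole the share of 86.8% (71.9 to 95.6) was the background. Family genes are long, so each was also set against all other coding genes of its length class, the classes being 10 groups of equal size ordered by length. These would give 12.2 occupied ADAM genes and 16.6 occupied ADAMTS genes. The difference between the families was 26.3 percentage points (Newcombe interval 0.352 to 48.8), and under each of the other settings tried its interval included 0. The table gives no strand, so an end can be a start or a finish.

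Both ends were occupied in 7 of 14 ADAM genes, 5 of 19 ADAMTS genes and 5 of 5 ADAMTS-like genes, against 45.2% of all coding genes. A gene-end peak with a fold of 4 or more was found at 11 ADAM genes (78.6%, 49.2 to 95.3), 9 ADAMTS genes (47.4%, 24.4 to 71.1) and 4 ADAMTS-like genes, against 50.6% of all coding genes. A fold of 8 or more was reached at 3 ADAM genes, 1 ADAMTS gene and 1 ADAMTS-like gene, against 15.9%, a share of 13.2% for the 38 together. In all 5 the peak overlapped the window of 1 kb but had its summit outside it, 1407 to 2433 bp from the gene end. The background share was counted by overlap in the same way. By family the shares at a fold of 8 or more were 21.4% for ADAM (4.66 to 50.8) and 5.26% for ADAMTS (0.133 to 26.0). The median best fold was 4.72 for ADAM, 3.89 for ADAMTS with unoccupied genes at 0, and 4.04 for all coding genes.

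**Figure D1:**
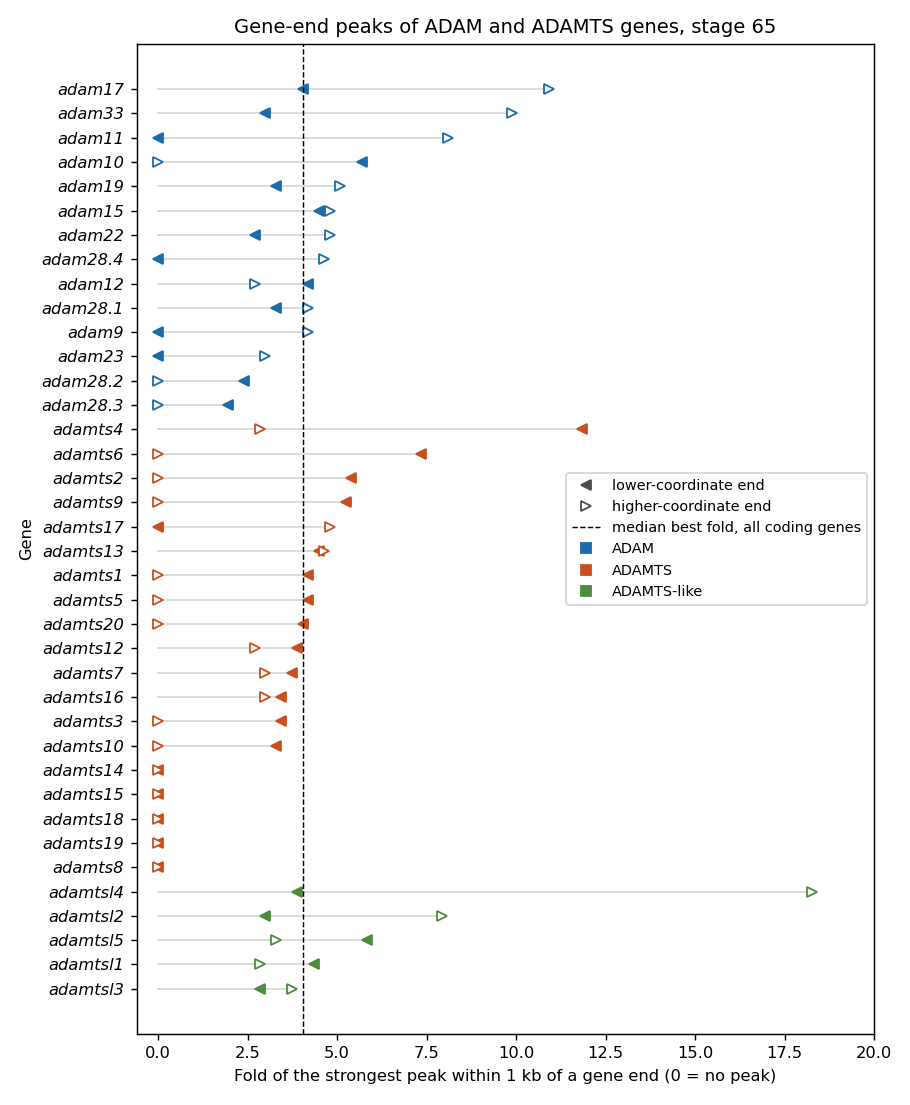
Fold of the strongest peak overlapping the 1 kb window at each gene end for the 38 genes in the stage 65 library. Genes are ordered by family and by the better end, with 0 for an end without a peak. The dashed line is the median best fold of all coding genes (4.04). The fold is that of the peak's summit, which can lie outside the window. All 14 ADAM genes have at least 1 end above 0, while 5 ADAMTS genes have both ends at 0, and adamtsl4 has the highest fold (18.3).

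Among the active membrane proteases, adam17, which releases tumour necrosis factor and ligands of the EGF receptor, had the strongest gene-end peak of the ADAM family. It lies on chromosome 5 at 137836746 to 137875683. The peak at its higher-coordinate end, at 137874910 to 137879461, had a fold of 10.9 and 72 fragments at the summit, which lay 1763 bp outside the gene. A weaker peak of fold 4.04 stood at the other end. The stronger peak was broad, at 4552 bp, and it overlapped the window of 1 kb with its summit outside it. The 10 kb flanks of adam17 also held the genes iah1 and ywhaq, so the peak cannot be given to adam17 alone.

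adam33 followed with a fold of 9.88. The table lists adam13 as its synonym, a gene studied in Xenopus for its part in neural crest migration. Its strongest peak, on chromosome 1 at 16303304 to 16304635 with 65 fragments, had its summit 1960 bp inside the gene. adam10, the sheddase that opens Notch receptors to further cleavage, differed in kind: its peak on chromosome 3 at 99286774 to 99287145 was 372 bp wide, had a fold of 5.69 with 37 fragments, and its summit lay 85 bp from the gene's end. This was a focal peak at an end, with nothing called at the other end.

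adam19 and adam12, the meltrins known from bone, heart and muscle development in mice, had best gene-end folds of 5.09 and 4.19, with a peak at each end. adam15, whose human protein carries an integrin-binding motif, had 4.49 and 4.79 at its ends. adam9, a broadly expressed sheddase, had 4.19 at 1 end only. The window around that end also held the gene tm2d2, so the peak cannot be given to adam9 alone. The 7 sheddase genes were all occupied, against 85.7% of all coding genes, with best folds from 4.19 to 10.9. At both ends 5 of them were occupied, against 45.2% of all coding genes.

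Of the 3 ADAM genes whose products lack protease activity and act in neurons, adam11 had a fold of 8.08, adam22 of 4.79 and adam23 of 2.99. The adam11 value rests on a peak of 4063 bp whose summit lay 1407 bp outside the gene, and that peak was its only one at an end. The 10 kb flanks of adam11 also held gjc1. At adam22, which binds the secreted protein LGI1 at synapses, the window of the weaker end also held gtpbp10. adam23, another LGI1 partner, had 19 fragments in a peak with its summit 286 bp inside the gene.

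The 4 adam28 genes lie in tandem on chromosome 3 between 127411016 and 127567336. Their best gene-end folds were 4.64 at adam28.4, 4.19 at adam28.1, 2.40 at adam28.2 and 1.95 at adam28.3. The last of these equalled the lowest fold of the whole peak list, with 12 fragments and a −log10 q of 1.45. Reads from tandem copies can be shared among them, and no source used here says how such reads were placed, so the order of the 4 is uncertain. Without these copies 10 of 10 ADAM genes were occupied.

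Among the ADAMTS genes, adamts4, which encodes an aggrecanase, had the strongest gene-end peak. It is a gene of 18120 bp on chromosome 8 at 142615483 to 142633602. The peak, at 142615590 to 142619164, had a fold of 11.8 and 78 fragments. It was 3575 bp wide, with its summit 2433 bp inside the gene, and a peak of fold 2.84 lay at the other end.

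The other genes for proteoglycan-cutting enzymes were weaker or unoccupied. adamts5, the second aggrecanase, and adamts1, which cuts aggrecan and versican, each had a best fold of 4.19 with 27 fragments, at the lower-coordinate end only. The summits of these peaks lay beyond the 1 kb windows, 1691 bp inside adamts5 and 1672 bp outside adamts1. The peak that crossed the adamts1 end itself had a fold of 3.44. adamts9, a versican-cutting enzyme, had 5.24 and its relative adamts20 had 4.04, again at the lower-coordinate end only. adamts8 and adamts15 had no gene-end peak. In all, 5 of these 7 genes were occupied, and only adamts4 at both ends. The shares over all coding genes were 85.7% and 45.2%.

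The procollagen proteinases remove the amino-terminal propeptide of fibrillar collagens. adamts2 had a fold of 5.39 in a peak whose summit lay 1479 bp outside the gene. adamts3 had 3.44, in a peak whose summit lay 66 bp from the gene's end, and adamts14 had none. None of the 3 had peaks at both ends, against 45.2% of all coding genes.

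adamts6 and adamts10, whose human proteins are linked to fibrillin microfibrils, were occupied at 1 end each. At adamts6 a peak of fold 7.34 with 48 fragments crossed the end itself, on chromosome 1 at 187883676 to 187884775, with its summit 223 bp outside. This was the second highest gene-end fold among ADAMTS genes. At adamts10 the fold was 3.29. adamts7 and adamts12, whose human proteins bind the cartilage protein COMP, had best folds of 3.74 and 3.89, with a peak at each end.

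adamts13, which cuts von Willebrand factor in blood, had folds of 4.49 and 4.64 at its ends, and the window of the stronger also held cacfd1. Of the 4 remaining ADAMTS genes, adamts17 had 4.79 at 1 end and adamts16 had 3.44 and 2.99, while adamts18 and adamts19 had none. The 5 unoccupied genes were thus 2 for proteoglycan-cutting enzymes (adamts8 and adamts15), 1 for a procollagen proteinase (adamts14) and 2 of the remaining genes (adamts18 and adamts19).

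For most of the 5 unoccupied genes a peak was called not far beyond the window. The nearest peaks began 1052 bp from an end of adamts8 (fold 2.99), 1188 and 1229 bp from the ends of adamts19 (2.25 and 9.43) and 1587 bp from an end of adamts18 (3.59). At adamts15 and adamts14 the nearest were 2882 bp (4.04) and 2901 bp (3.44) away. With windows of 2.5 kb 17 of 19 ADAMTS genes were occupied, against 95.2% of all coding genes, and only adamts14 and adamts15 were not. The peak of fold 9.43 lay inside adamts19, so this gene is unoccupied by the window alone and not by a lack of a strong peak nearby.

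All 5 ADAMTS-like genes had peaks at both ends, against 45.2% of all coding genes. adamtsl4, linked in humans to the lens-holding zonule, had a fold of 18.3 with 121 fragments on chromosome 8 at 127475449 to 127480456, a peak of 5008 bp with its summit 2094 bp outside the gene. adamtsl2, linked in humans to short stature and fibrillin-rich matrix, had 7.94 with 52 fragments and a summit 382 bp outside. adamtsl5 had 5.84, adamtsl1 4.34 and adamtsl3 3.74. Only the first exceeded a fold of 8.

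Every one of the 38 genes had a peak summit in its body, against 89.1% of all coding genes, and in its 10 kb flanks, against 98.8%. Both counts are near their ceiling for genes of this length: 99.6% and 98.8% of other genes in the same length classes had one. The number of body peaks ran from 4 at adamts15 to 78 at adamts12, a gene of 340375 bp. Numbers were therefore put per 10 kb of gene.

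Body peaks were denser in ADAM genes, with a median of 2.81 summits per 10 kb (range 1.04 to 4.25), than in ADAMTS genes, with 1.97 (0.872 to 4.59). The ADAMTS-like median was 2.76, that of all coding genes 2.30, and that of chromosomes 1 to 10 as a whole 2.15. Density was lower in longer genes, and ADAMTS genes were longer, with a median of 79473 bp against 40642.5 bp for ADAM. The medians of other genes of the same length classes averaged 2.12 for ADAM and 2.04 for ADAMTS. Above the median of their length class stood 11 of 14 ADAM genes and 10 of 19 ADAMTS genes. Other genes of at least 20 kb were also grouped by distance from a chromosome end. Above the median density of their distance class stood 9 of 14 ADAM genes and 7 of 19 ADAMTS genes. Those medians averaged 2.51 for ADAM and 2.23 for ADAMTS. The 9 ADAM genes include all 4 adam28 copies, which form 1 tandem locus. Without these copies the ADAM median density was below 2.51, the average for all 14 genes. By the median, the ADAM excess over genes at like distance thus rests on that locus.

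Among ADAM genes of at least 10 kb, the densest were adam28.3 with 12 body peaks (4.25 per 10 kb), adam19 with 15 (3.97) and adam28.1 with 13 (3.86). The sparsest were adam23 with 11 peaks in 106039 bp (1.04), adam10 with 13 in 84366 bp (1.54) and adam15 with 13 in 61892 bp (2.10). A summit count takes a wide peak as 1. Peaks covered 75.4% of the adam15 body, so its low density is not a low coverage. Among ADAMTS genes of that length, adamts4 (4.42), adamts13 (4.18) and adamts9 (3.09) were densest. adamts15 (0.872), adamts6 (1.06) and adamts20 (1.25) were sparsest. adamts1, at 8724 bp, held 4 peaks, or 4.59 per 10 kb.

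**Figure D2:**
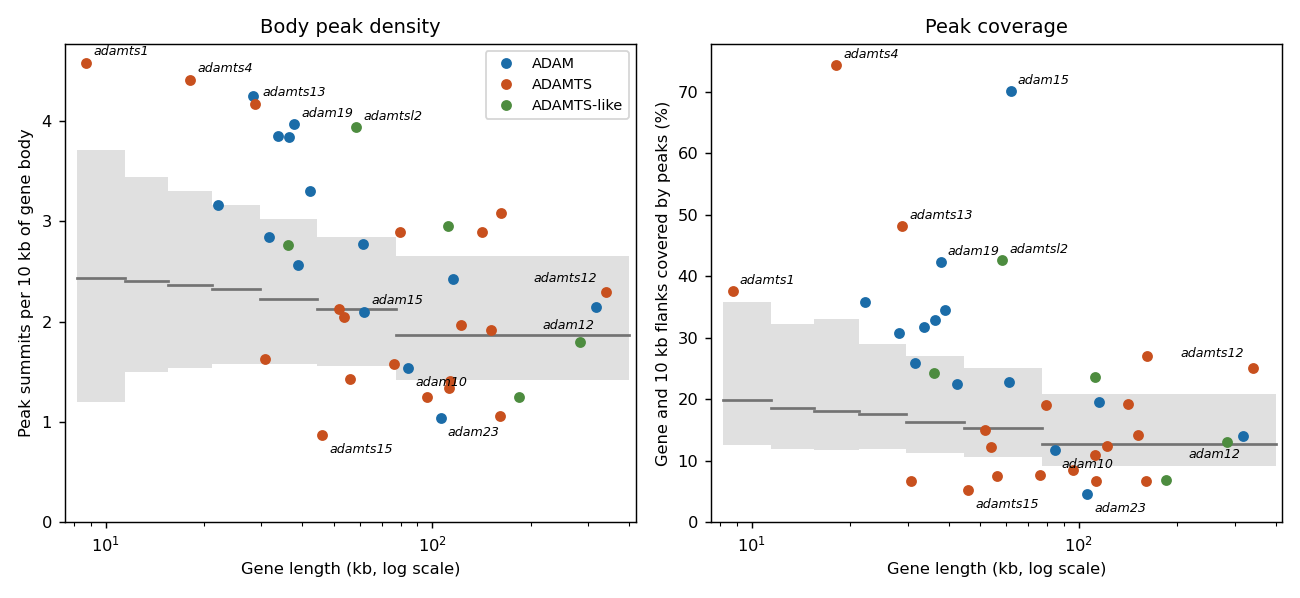
Peak summits per 10 kb of gene body (left) and percent of the gene with its 10 kb flanks covered by peaks (right) against gene length on a log axis, each point 1 gene. Grey lines and shading are the median and quartiles of other coding genes in each length class. Most ADAM genes lie above the grey line, ADAMTS genes lie on both sides of it, and adamts4 and adam15 are covered to over 70% by the right panel (74.3% and 70.1%).

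In the 10 kb flanks the median was 3 summits per 10 kb at ADAM genes, 2.5 at ADAMTS genes and 3.5 at ADAMTS-like genes, against 2.5 for all coding genes. With flanks of 25 kb the medians were 3.1 for ADAM and 2 for ADAMTS. In the 10 kb flanks the highest value was 5 at adam28.1, with 6 and 4 peaks on its sides, and the lowest was 0.5 at adam23, with 1 peak in 20 kb. adamts6 and adamts17 had 4 peaks on one side and 0 on the other, and adamts5 had 5 and 0. Flanks may hold other genes: another coding gene overlapped the 10 kb flanks of 11 of 14 ADAM genes but of 5 of 19 ADAMTS genes. Among other genes of the same lengths the shares were 62.0% and 56.4%. The 11 ADAM genes include adam28.3 and adam28.2, where the only gene in the flanks was the other tandem copy.

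The families were also compared among genes with and without another coding gene within 10 kb. With another gene within 10 kb, the 11 ADAM genes had a median of 2.85 body summits per 10 kb and the 5 ADAMTS genes 2.13. These 11 include adam28.3 and adam28.2, each counted as the neighbour of the other. The medians of other genes of the same length classes with another gene within 10 kb averaged 2.20 for ADAM and 2.14 for ADAMTS. Without one, the 3 ADAM genes (adam10, adam23 and adam28.1) had a median of 1.54 and the 14 ADAMTS genes 1.60. Other genes of the same length classes without one had medians averaging 1.997 for ADAM and 1.914 for ADAMTS. Both family medians lay below these values, and the ADAM median rests on 3 genes ranging from 1.04 to 3.86. In this stratum 10 of the 14 ADAMTS genes and all 3 ADAM genes had a gene-end peak, against 85.9% of other genes of the ADAMTS lengths. The share that neighbours have in the family difference was not tested.

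In steps of 2 kb around both ends, summits of genes of at least 20 kb were most frequent just inside the end. For all 9112 such genes the first 2 kb inside held 2.87 summits per 10 kb, against 2.52 in the 2 kb outside and 2.27 at 2 to 4 kb inside. ADAMTS genes had 2.79, 2.35 and 1.32 in the same bins, from 19, 16 and 9 summits. ADAM genes had 3.57, 3.39 and 3.93, from 20, 19 and 22 summits, so no bin at the end stood out. At 2 to 4 kb inside, the ADAM interval (2.46 to 5.95) lay above the value of all genes, and the intervals of the families overlapped slightly. In every other bin the ADAM interval included the value of all genes. The intervals treat summits as independent, although summits share genes and the adam28 copies are adjacent. Within bodies, 46.3% of ADAM and 46.5% of ADAMTS summits lay in the middle 50% of the gene, against 48.3% for all coding genes of at least 10 kb.

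**Figure D3:**
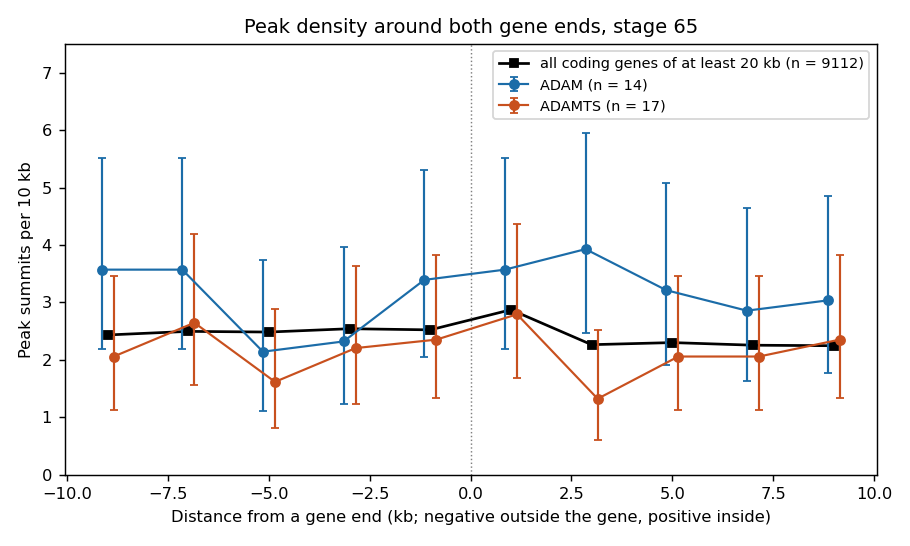
Peak summits per 10 kb in 2 kb bins from 10 kb outside to 10 kb inside a gene end, both ends pooled, for genes of at least 20 kb, with exact Poisson intervals for the families. The ADAMTS line is below that of all coding genes in 8 of 10 bins, with its highest bin (2.79) just inside the end, while the ADAM line is above that of all coding genes in all bins but those from 6 to 2 kb outside.

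Coverage also followed position along the chromosome. Genes near chromosome ends were widely covered by peaks: among other coding genes of at least 20 kb, the median share of the gene and its flanks under peaks was 48.5% within 10 Mb of an end, 27.6% from 10 to 20 Mb, 17.6% from 20 to 30 Mb, 13.6% from 30 to 50 Mb and 11.0% beyond. Ends are taken as position 1 and the end of the last peak. Over the 38 family genes, coverage and distance to the nearer end had a Spearman correlation of -0.82, a description over genes that share 1 library.

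ADAM genes lay nearer to chromosome ends, with a median distance of 26.2 Mb against 38.4 Mb for ADAMTS. Their median coverage was 28.4% (4.62 to 70.1), that of ADAMTS genes 12.4% (5.20 to 74.3) and that of all coding genes 17.9%. Coverage above 30% was seen in 7 of 14 ADAM genes and 3 of 19 ADAMTS genes, against 27.0% of all coding genes. Among other genes of the same lengths the shares were 19.8% for ADAM and 18.7% for ADAMTS. Their length-class medians of coverage averaged 15.3% and 14.5%. The 7 ADAM genes include adam28.4, adam28.3 and adam28.1, which are neighbours in the tandem locus. Other genes of at least 20 kb at the same distances from an end had class medians averaging 21.2% for ADAM and 20.4% for ADAMTS. Above the median of their distance class stood 11 of 14 ADAM genes and 7 of 19 ADAMTS genes.

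Within 10 Mb of an end lay adam15, at 1.83 Mb with 70.1% covered, adamts4, at 4.61 Mb with 74.3%, adamts13, at 5.05 Mb with 48.1%, adamtsl2, at 5.25 Mb with 42.7%, and adamts9, at 9.36 Mb with 27.0%. The first 4 of these are on chromosome 8 and are the most covered of the 38 genes. adamts9 was below the lower quartile of other genes in that range (36.4%).

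From 20 to 30 Mb the 8 ADAM genes had a median of 28.4% (13.9 to 35.8), against 17.6% for other genes there. The 4 adam28 copies are among the 8, with 25.9% to 35.8%, and so are adam17 with 34.5%, adam9 with 22.4%, adam22 with 19.5% and adam12 with 13.9%. All but adam12 were above the median of other genes. The single ADAMTS gene in that range, adamts6, had 6.61%.

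Beyond 50 Mb lay 8 ADAMTS genes with a median coverage of 7.94% (5.20 to 12.4), against 11.0% for other genes. Of these 8, 4 had a gene-end peak, against 80.7% of other genes of at least 20 kb at that distance. The 4 without were adamts8, adamts15, adamts18 and adamts19, and the fifth unoccupied gene, adamts14, lay 42.3 Mb from an end. Counting by distance, other genes would give 16.6 occupied ADAMTS genes of 19, the number that length gave, and 12.5 occupied ADAM genes of 14. The part that position has in the family difference was not tested beyond these counts.

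**Figure D4:**
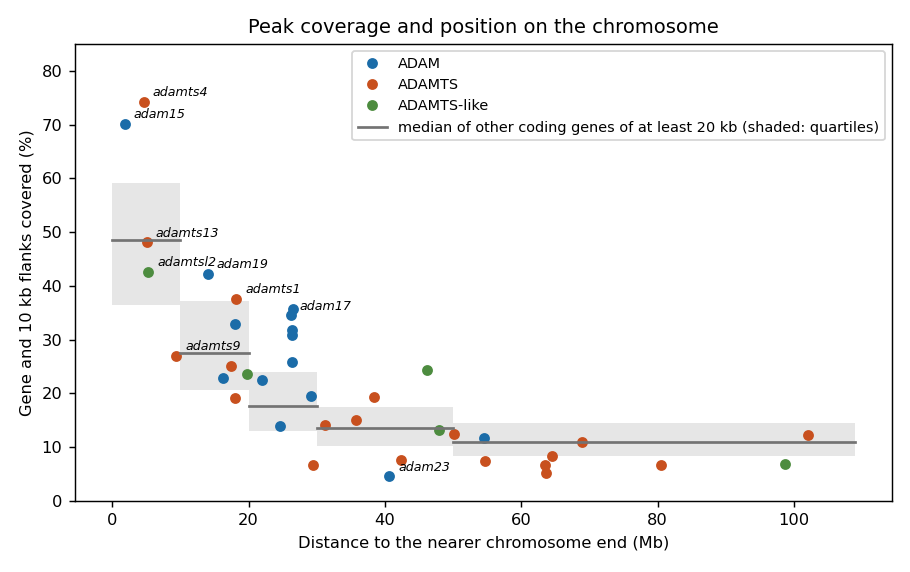
Percent of each gene with its 10 kb flanks covered by peaks against the distance to the nearer chromosome end in Mb, each point 1 gene, with the median and quartiles of other coding genes of at least 20 kb in 5 distance classes. Coverage falls from 70.1% at adam15 and 74.3% at adamts4 near the ends to 5.20% at adamts15 and 4.62% at adam23. The ADAM genes from 20 to 30 Mb lie mostly above the grey line, while adam23 at 40.6 Mb lies below it.

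Several family genes lie side by side, and some of the stretches between them held strong peaks too. The strongest fold of a stretch was not set against other stretches of like length. The aggrecanase genes adamts5 and adamts1 are 132637 bp apart on chromosome 2. Between them 23 summits were called, 1.73 per 10 kb, and the strongest peak, at 18122385 to 18141443, had a fold of 32.6. It ended 6524 bp before adamts1, overlapped neither of the 2 other coding genes of the stretch and was 19059 bp wide, wider than adamts1 itself.

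The pair adamts15 and adamts8 on chromosome 7 differed. No other coding gene lies in the 134227 bp between them, and that stretch held 29 summits, 2.16 per 10 kb, with 19.2% covered. The genes themselves held 4 and 5 body peaks, or 0.872 and 1.63 per 10 kb, and coverage of 5.20% and 6.64%. The strongest peak between them, at 70028243 to 70033186, had a fold of 8.53. Peaks in this pair were thus denser between the genes than in them.

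adamts13 and adamtsl2, on chromosome 8, are 166548 bp apart with 4 coding genes between them, among them mymk, which encodes a muscle fusion protein. That stretch was 45.2% covered, with 54 summits and a strongest fold of 47.3 at 5185191 to 5195257, in a peak that lies inside mymk. Among the adam28 copies, the strongest peak lay between adam28.4 and adam28.3 at 127446848 to 127451072, with a fold of 22.9. Between adam28.3 and adam28.2 the best fold was 2.40, and between adam28.2 and adam28.1 it was 4.04. None of the 4 gene bodies held a fold above 12.3.

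**Figure D5:**
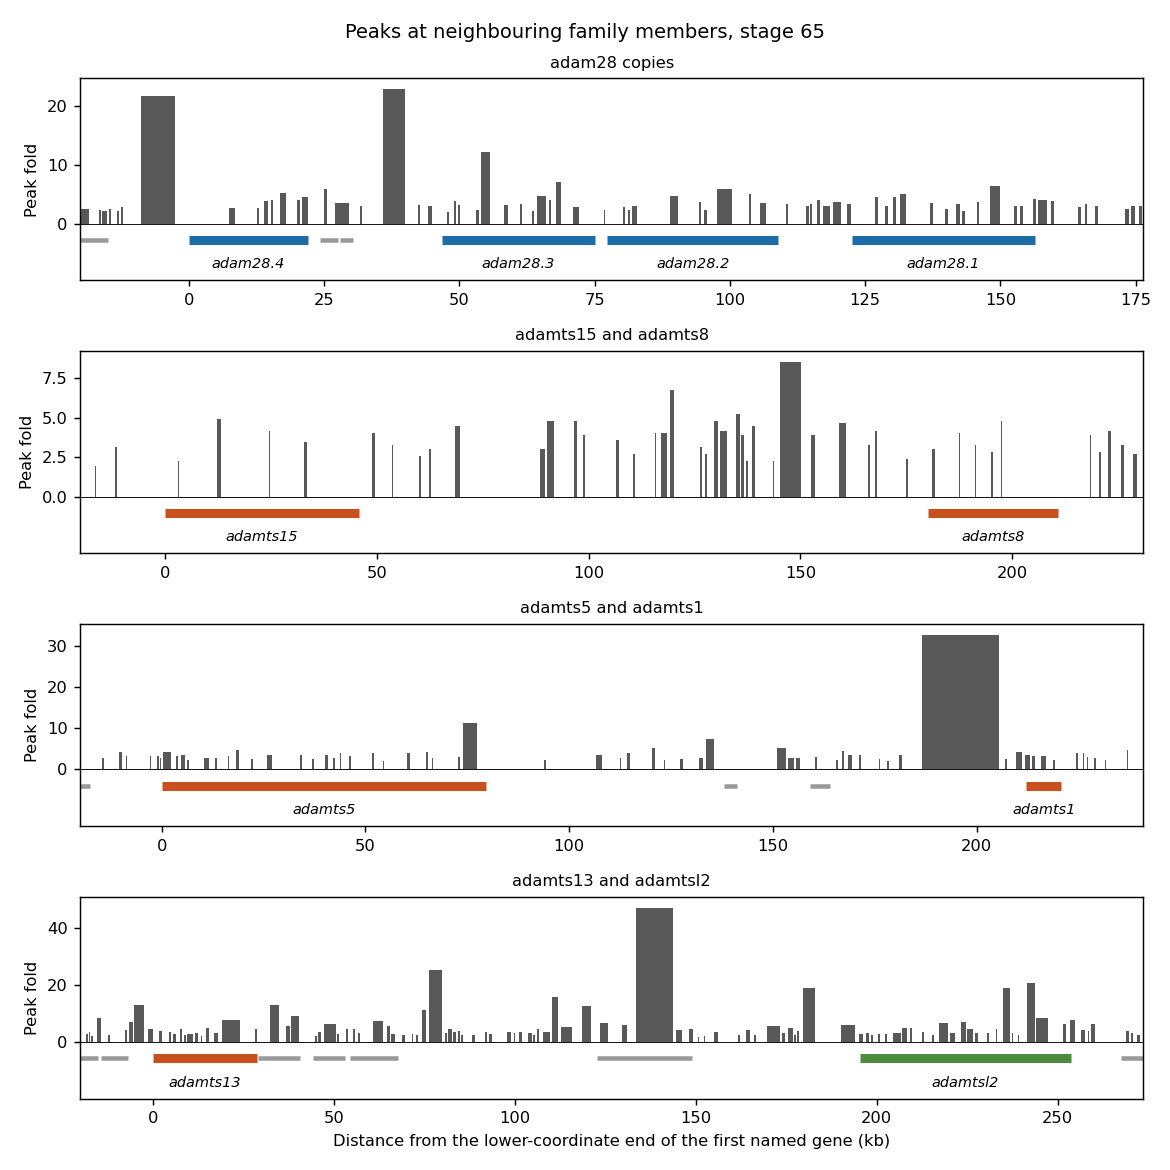
Peaks of the stage 65 list at 4 groups of neighbouring family genes, as bars of the peak's width and fold, against the distance in kb from the lower-coordinate end of the first named gene. Coloured bars below are family genes and grey bars other coding genes. The strongest peaks (folds of 32.6 and 47.3) lie between the named family genes, the second of them inside mymk, and adamts15 and adamts8 hold few peaks in their bodies.

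A peak with a fold of 15 or more overlapped the body of 8 of the 38 genes (21.1%, 9.55 to 37.3), against 11.4% of all coding genes and 19.2% of those of the same lengths. The highest fold was 78.5 in adam19, in a peak of 3413 bp lying 14156 bp from the nearer end. It was followed by 49.0 in adamts12, in a peak of 9464 bp, 41.3 in adam15, 29.2 in adamts9 and 26.1 in adam12. The adam12 peak, on chromosome 7 at 24685054 to 24686330, was narrow for its fold, at 1277 bp, and lay 77475 bp inside the gene. The other 3 genes were adamtsl2 with 20.8, adamtsl4 with 18.3 and adam17 with 16.8. The adamtsl4 value is that of its gene-end peak, whose summit lies outside the gene.

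Most body peaks were ordinary. The median fold was 3.29 over 244 ADAM body peaks, 3.22 over 380 ADAMTS body peaks and 3.29 over all genes. Folds of 8 or more made up 6.15% of ADAM (3.48 to 9.94), 4.21% of ADAMTS (2.43 to 6.75) and 6.45% of all body peaks.

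Genes that work with these proteases were described from 3 lists. Of 6 inhibitor genes that matched a symbol, all had a gene-end peak, against 85.7% of all coding genes. Other genes of the same lengths would give 5.23. The highest fold was 13.5 at timp3, whose product blocks ADAM17 and the aggrecanases. timp4 had 6.44, timp2 5.09 and reck, whose product restrains ADAM10, 3.74. The lowest were papln with 3.29 and a2m with 2.84. timp3, timp4 and a2m lie within 10 Mb of a chromosome end, with 56.7%, 59.4% and 24.0% covered. The median best fold of the 6 genes was 4.42.

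Of 15 genes for matrix substrates, 11 were occupied (73.3%), against 85.7% of all coding genes, and other genes of the same lengths would give 13.1. The proteoglycan genes acan, ncan and dcn and the collagen gene col3a1 had no gene-end peak, and vcan had a fold of 2.84. The list had a median best fold of 2.84, a median body density of 1.53 per 10 kb and a median coverage of 8.67%. The medians of other genes of the same length classes averaged 4.12, 2.06 per 10 kb and 14.6%. The list was not set against genes at the same distance from a chromosome end. Most of its genes, acan, comp, col2a1 and dcn among them, lie 30 Mb or more from an end. Other coding genes of at least 20 kb had medians of 1.94 per 10 kb and 13.6% from 30 to 50 Mb, and 1.67 and 11.0% beyond. The substrate genes that were occupied included bcan at 5.84, col1a2 at 5.39 and fbn2 at 5.09.

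Of 27 genes for shedding substrates and partners, 25 were occupied (92.6%), against 85.7% of all coding genes, with a median best fold of 4.19 against 4.04. Other genes of the same lengths would give 23.6 occupied genes. The EGF family ligands areg and ereg were the exceptions, while hbegf and tgfa had 4.19 and 3.44. The receptor genes notch2, notch1 and notch3 had 6.14, 4.64 and 3.89. rhbdf2, whose product carries ADAM17 to the cell surface, had 16.8, and rhbdf1 had 3.89. The rhbdf2 and notch1 genes also lie within 10 Mb of a chromosome end, with 50.8% and 46.5% covered. Of the tetraspanin genes, whose products escort ADAM10, tspan10 had 32.6, tspan5 7.34, tspan15 4.94, tspan17 and tspan33 4.34 each, and tspan14 3.29.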

How the data were processed

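ATAC-seq of the urostyle at stage 65 of Xenopus tropicalis was analysed, with 1 library. The submitters' processing notes name Bowtie2, Picard, MACS2 and Genrich, with no version or role. No source used here gives the genome build, the filters or a shift of reads. The deposited list gives a fold (a ratio of pileups), −log10 p and −log10 q at each summit, and a deposited score that equals 10 times the −log10 q. The folds were whole multiples of 0.150, within 0.02 of a step, in 100% of peaks with folds under 60, and the −log10 p followed a Poisson tail of mean 5.68 fragments. Total reads are not given. Gene positions are RefSeq's, of UCB_Xtro_10.0, and the fit of the list to that build was judged from chromosome names and the last peak of each chromosome only. Coordinates are 1-based.

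A gene end was occupied when a peak overlapped the 1 kb to either side by at least 1 bp, and body and flank peaks were counted by summit, while the strongest peak of a body was taken by overlap. The table has no strand. Shares have exact Clopper-Pearson 95% intervals. Background values use all other coding genes of the same length class, and no genes were drawn at random. Members and lists were chosen with earlier results of these data known. The length classes of the lists were added after their values were seen. Named genes were those without a gene-end peak, the highest and lowest of each family by fold, density or coverage, and members with well-known roles. No sequence was used. Interval counting was tested on simulated regions. Python 3.11.15, pandas 2.3.3, numpy 2.4.6, scipy 1.17.1 and statsmodels 0.14.6 were used.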

Additional observations from a re-analysis of the deposited data

How the results depend on the processing

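No paired analysis was possible because each stage has 1 library and no test was made. Occupancy kept within 1.5 times its value for ADAM (11 to 14 of 14 genes) under 5 other settings: windows of 2.5 kb, folds of 4 or more, at least 50% of the peak in the window, the summit in the window, and no peaks wider than 3 kb. For ADAMTS it did so under 4 of them (13 to 17 of 19) and fell to 9 with folds of 4 or more. The difference of 26.3 percentage points ranged from 10.5 to 31.2, ADAM higher each time. Its interval then reached from -12.3 to 31.4 at the 2.5 kb window and from -2.30 to 55.6 at folds of 4 or more. Without the 4 adam28 copies, a setting chosen after seeing the data, it was 26.3 (-5.00 to 48.8).

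With folds of 4 or more, which removes peaks by construction, the median body density was 0.801 per 10 kb for ADAM and 0.356 for ADAMTS, and the flank density 1 and 0.5. Both stayed within 1.5 times under the other settings, overlap counting, no wide peaks, flanks of 25 kb, bodies without their outer 1 kb, and, for ADAM, without the adam28 copies. With the 200 genes nearest in length, also chosen after seeing the data, 11 ADAM and 9 ADAMTS genes stood above the median body density. A window at gene starts alone was not run, since the table has no strand. Depth beyond the summit pileups is unknown.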
